A study of Drosophila melanogaster with 9 samples.

Results

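The response of whole adult Drosophila melanogaster to 2.5 hours of constant hypoxia (CH) was read from 6 of the 9 arrays of the series, 3 from CH flies and 3 from normoxia controls (NC). The flies were of the wild type stock Canton-S, with no transgene or mutation named in the labels, and each sample pooled 25 whole flies, males and females, aged 5 to 6 days. CH flies were held at 1% O2, and NC flies stayed in the same room in room air (21% O2). The other 3 arrays came from intermittent hypoxia (IH), which cycled between 1% O2 for 4 min and 21% O2 for 4 min over the same 2.5 hours. Ramps joined these periods, and the ramp down to 1% O2 lasted longer than either period. IH flies were thus at 1% O2 for only a small part of each cycle. The sources used here do not state that the 3 samples of a group came from separate exposures, so every p-value reflects the variation among these arrays alone, and that variation may be technical. A whole-fly sample sums all tissues of both sexes, and fewer cells of a type and less RNA per cell cannot be told apart.

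Flies survive very low oxygen for hours, and their cells answer through several routes. The transcription factor Sima, with its partner Tgo, accumulates when the prolyl hydroxylase Hph lacks oxygen and switches on genes for oxygen delivery and reduced growth, while heat shock factor turns on the Hsp70 family of chaperones when proteins unfold. Lowered insulin and TOR signalling frees FOXO and REPTOR, which restrain growth, and glutathione S-transferases (GSTs), cytochrome P450s and UDP-glycosyltransferases (UGTs) handle reactive and foreign compounds.

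The array is the Affymetrix Drosophila Genome 2.0, on which each gene is covered by at least 1 set of short oligonucleotide probes. The members are its 18769 probe sets other than controls. A signal is the deposited linear intensity, and a fold change is a difference of group means of log2(signal + 16), which understates the change of dim probe sets. The account keeps mainly to bright probe sets, with a mean signal over the 9 arrays of at least 500, which were 10263 (54.7%). Every array had a trimmed mean of 2500, the median signal lay between 594 and 823, and each of the 10 lists of tissue markers had bright members. The array's 3 controls for 18S rRNA averaged 6.88, 6.89 and 7.40 on the log2 scale in NC, 8.19, 9.68 and 8.85 in CH and 7.07, 10.54 and 10.22 in IH. CH and NC did not overlap there (two-sided p = 0.1 by an exact permutation test, the least that 3 against 3 arrays can give), and the part of rRNA signal in the results was not tested. The log2 ratio of the 3′ to the 5′ control probe sets differed between CH and NC means by -0.09 for actin, 0.01 for GAPDH and 0.04 for eIF-4a, so these ratios were close in both groups.

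CH raised 4 of 18769 probe sets and lowered 0 by limma over all 9 arrays, at an adjusted p under 0.05, a fold above 1.5 or under 0.67 and every CH array on one side of the NC mean (0.0213% and 0% of those tested). The 4 were 3 probe sets for copies of Hsp70 and 1 for CG10383. With the replicate number as a block, 1 of the 4 was called, the 4-copy Hsp70B probe set (adjusted p = 0.0497), and the others missed the threshold, with 0.0951 for Hsp70Aa and Hsp70Ab, 0.0951 for CG10383 and 0.1 for Hsp70Bc and Hsp70Bb. With no fold or direction limit, 879 of 18769 probe sets had an unadjusted p under 0.05 by limma, a share below the 0.05 expected if nothing changed. Of these, 477 higher and 250 lower ones met the same fold and direction limits, so these counts alone show no response. The smallest adjusted p of any lower probe set was 0.168. When the spread was allowed to follow the signal with robust estimation, limma called 17 higher and 0 lower, and the 17 held all 4 of the first fit together with Hsp68, GstE1, GstE3, Dph1, trbl, aay, CG11825, ImpL2, CG5953 and Lpin and 3 probe sets with no symbol here. With only the 3 NC and 3 CH arrays it called 0. The count also rested on single arrays and was 3 without NC1 or IH1, 2 without NC3, CH1, IH2 or IH3, 1 without NC2 and 0 without CH2 or CH3.

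Among bright probe sets, all 3 CH arrays lay above all 3 NC arrays in 702 (6.84%) and below them in 737 (7.18%). If the 6 arrays were exchangeable, a probe set would separate in one direction or the other with a probability of 0.1. Much of both counts is therefore expected with no change. Of the 8506 dimmer probe sets, 636 lay above (7.48%) and 275 below (3.23%). With arrays centred on their medians in place of the deposited scaling, the bright counts were 478 above and 840 below, so the balance of the directions depends on the scaling. Most of these differences were small, with a median log2 fold change of 0.35 for those above and -0.26 for those below. A fold above 1.5 was left in 98 (0.955%) and a fold under 0.67 in 76 (0.741%), and these 174 probe sets are described as chosen on this contrast. Of the 98, 83 carry 1 gene symbol, 9 several and 6 none here. Of the 76, 73 carry 1 symbol, 1 several and 2 none. An unadjusted p under 0.05 by limma was reached by 82 of the 98 and by 61 of the 76. Both groups were chosen for separation and fold on these same arrays, so these counts are no support for them. A log2 fold change beyond 1 was seen in 23 and beyond -1 in 9.

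**Figure D1:**
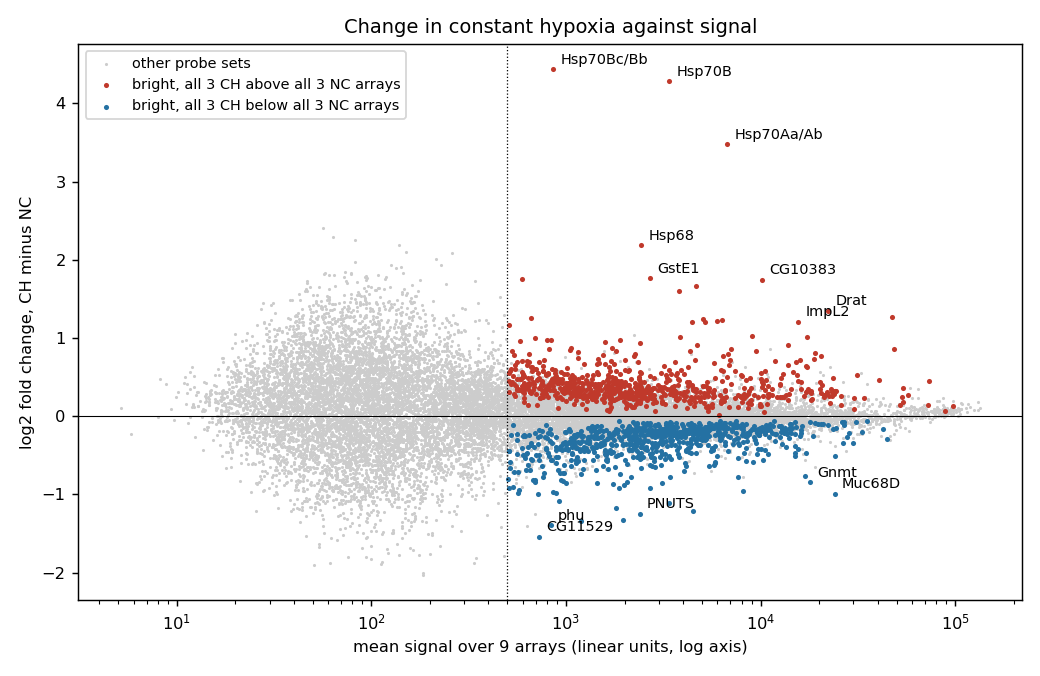
Log2 fold change of CH against NC (vertical axis) by mean signal over the 9 arrays (horizontal, log axis) for 18769 probe sets, with bright probe sets whose 3 CH arrays lay all above (red) or all below (blue) the 3 NC arrays and a dotted line at a signal of 500. The 3 Hsp70 probe sets stand between 3.48 and 4.44, and the lowest bright probe set, CG11529, is at -1.54.

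The edges of the rule show what it separates. The bright probe set for cbt was just inside, with a lowest CH signal of 13580 over a highest NC signal of 13404, and CG15570 was just outside, with 8538 under 8544. On the lower side Alp9 was just inside (highest CH signal 2860, lowest NC signal 2874) and CG10505 just outside (549 over 546). By brightness, CG33474 (mean signal 510) and Ugt304A1 (501) were just inside, and CG31752 (499) and CG13427 (480) just outside. A probe set can pass the brightness limit only through the groups where it is high, and the list shares count such members. CG33474 averaged 292 in NC, 663 in CH and 575 in IH, and Ugt304A1 averaged 705, 396 and 401. CG13427 read 417, 806 and 1483 in NC and 198, 291 and 183 in CH (-1.78 on the log2 scale).

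Heat shock genes gave the 3 largest fold changes among bright probe sets. The probe set shared by Hsp70Bc and Hsp70Bb, inducible chaperones that bind unfolded proteins, read 34, 158 and 135 in NC1 to NC3 and 2106, 2822 and 2192 in CH1 to CH3. The increase was 4.44 on the log2 scale (adjusted p = 0.0473 by limma, standard error 0.46), from a mean of 109 ± 65.8 (SD, n = 3) to 2373 ± 391. It counted as bright only through the CH arrays, and its NC and IH signals were low. A brighter probe set for Hsp70Ba, Hsp70Bb, Hsp70Bbb and Hsp70Bc went from 303, 708 and 436 to 9571, 9410 and 8548 (4.29 on the log2 scale, standard error 0.28, adjusted p = 0.00483). The one for Hsp70Aa and Hsp70Ab, which lie in a separate cluster, went from 2086, 1500 and 1100 to 14507, 18881 and 17812 (log2 fold change 3.48, standard error 0.25, adjusted p = 0.00483). In all 3 cases the lowest CH array was far above the highest NC array. The copies are nearly identical, so a probe set cannot be credited to 1 of them. A further Hsp70B probe set stayed near background (mean signal 94.3 over the 9 arrays) and overlapped. One annotated to CG31343 as well as Hsp70Bc and Hsp70Bb ran the other way, with 7552, 11254 and 11152 in NC and 3338, 6685 and 5844 in CH.

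Around Hsp70 the increase was graded. Hsp68, a further inducible chaperone of the same family, read 852, 1382 and 1085 in NC and 5326, 5036 and 4615 in CH, with no overlap (log2 fold change 2.18, standard error 0.25), but missed the threshold by limma (adjusted p = 0.0787). It passed with quantile normalization, median centring, 50 added in place of 16 and the trend in the spread. DnaJ-1, the Hsp40 co-chaperone that hands substrates to Hsp70, had 18282, 13879 and 13776 in NC and 26277, 25359 and 23774 in CH (log2 fold change 0.73). The co-chaperone stv and the probe set shared by the small heat shock gene Hsp22 and CG4456 had log2 fold changes of 0.51 and 0.65. The abundant small heat shock genes Hsp26 and Hsp27 were high already in NC, at 49901 ± 3113 and 28585 ± 2275, and their CH arrays lay above by log2 fold changes of only 0.25 and 0.24. Hsf, the factor that drives these genes, had a log2 fold change of 0.26. The small heat shock gene l(2)efl overlapped (0.17).

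As a list, 9 of the 10 bright probe sets of stress-inducible heat shock genes had all CH arrays above all NC arrays and 0 below, against 6.84% and 7.18% of bright probe sets. The 9 include the Hsp70Bc and Hsp70Bb probe set, which was bright only through the CH arrays. The 4-copy probe set reads those 2 genes as well, so the 9 are not separate genes. The measured member that was not bright, a further Hsp70B probe set, overlapped. Of the 11 measured, 3 were called. The list median was 0.62, and 0.63 without CH1, while the median of all bright probe sets was -0.02. Among 25 constitutive chaperones, such as the chaperonin subunits and Hsc70 genes, 1 lay above and 1 below, and the median was 0.03. Of 14 genes of the endoplasmic reticulum stress response, 2 lay above, the sensor Ire1 (0.34) and the oxidase Ero1L (0.35), and 4 below. Those were the stress factor Atf6 (-0.40), the lectin chaperone Cnx99A (-0.23), Hsc70-3 (-0.07) and ERp60 (-0.07).

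CG10383 was the only other called probe set. It read 6855, 5583 and 4856 in NC and 20866, 19190 and 17595 in CH, groups that lie far apart (1.75 on the log2 scale, adjusted p = 0.0473 by limma, or 0.0951 with the replicate block, standard error 0.18).

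Of the genes tied to oxygen sensing, 3 of 9 bright members lay above (33.3%), which were Hph, ImpL2 and hry, and 0 below. Over all bright probe sets 6.84% lay above and 7.18% below. Hph, the prolyl hydroxylase that marks Sima for destruction and is itself induced by hypoxia, had 2 bright probe sets. The brighter read 17565, 14134 and 15049 in NC and 24829, 23089 and 23880 in CH (log2 fold change 0.62, standard error 0.19), and the dimmer read 778, 602 and 658 and then 1236, 1208 and 1287 (0.87, standard error 0.21). Both separated the groups, and neither passed limma (adjusted p = 0.752 and 0.544). ImpL2, a secreted protein that binds and restrains insulin-like peptides, went from 9572, 11488 and 9645 to 18758, 27628 and 25257 (log2 fold change 1.21, adjusted p = 0.184). The transcriptional repressor hry, a known switch of metabolic genes in hypoxia, had 15122, 18060 and 15481 in NC and 19976, 30912 and 33528 in CH (0.76). CH1 was the lowest of the 3 CH arrays for both ImpL2 and hry.

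Other members of that pathway fell short of the rule. scyl, an inhibitor of TOR, had a log2 fold change of 0.86, but CH1 at 9003 lay under NC3 at 9141. bnl, the fibroblast growth factor that guides tracheal branches, read 439, 324 and 335 in NC and 851, 834 and 564 in CH in its brightest probe set (0.99), whose mean signal of 490 was under the brightness limit. A second, much dimmer bnl probe set gave 1.02 without overlap, and the remaining one gave -0.86 with overlap. For sima itself the groups overlapped (0.34), as they did for tgo (0.00 after rounding), Vhl (0.14), fau (0.03) and EloB (0.00). The dim probe set for btl, the receptor of bnl, lay below (-0.87). The median of the bright members was 0.34, and 0.49 without CH1, and 0 of 11 measured members were called.

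In insulin, FOXO and TOR signalling, 4 of 20 bright members lay above (20%) and 1 below (5%), and the median was 0.02. The shares over all bright probe sets were 6.84% and 7.18%. Beside ImpL2, trbl, a pseudokinase that blocks Akt, read 2436, 2846 and 3027 in NC and 6018, 5326 and 5461 in CH (log2 fold change 1.02, standard error 0.15, adjusted p = 0.168). REPTOR, the factor released when TOR is inhibited, had a log2 fold change of 0.55, and the insulin receptor InR, a FOXO target, had 0.40. Ilp8, a relaxin-like peptide, was the lower one, with 4461, 3719 and 3509 in NC and 2050, 2155 and 2214 in CH (-0.85). foxo (0.15), chico (0.15) and Akt (-0.01) overlapped between the groups.

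Of 23 bright lipid genes, 3 lay above (13%) and 2 below (8.7%), beside 6.84% and 7.18% of all bright probe sets, and the list median was -0.06. Lpin, the phosphatidate phosphatase lipin that also acts in the nucleus, read 3972, 4510 and 3936 in NC and 10822, 9326 and 8826 in CH (log2 fold change 1.22, standard error 0.19, adjusted p = 0.169). bmm, the triglyceride lipase brummer, had 10720, 9868 and 8505 and then 16222, 15159 and 16087 (0.71), and the lipid droplet protein Lsd-2 had 0.23. FASN3, one of the fatty acid synthases, was lower, with 10565, 11533 and 9267 in NC and 5806, 7028 and 5456 in CH (-0.78). The lipase Lip4 was lower too (-0.42, and -0.21 without CH1).

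**Figure D2:**
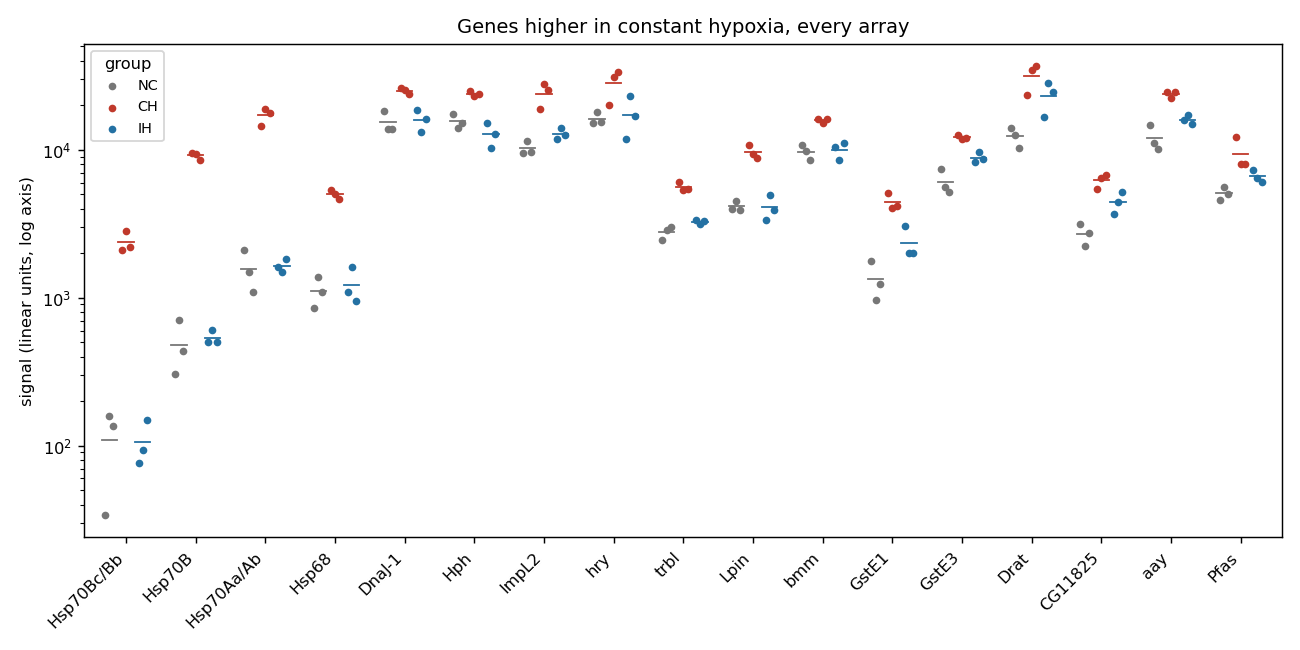
Signals (vertical, log axis) of 17 genes higher in CH, in each of the 3 NC (grey), 3 CH (red) and 3 IH (blue) arrays, with arithmetic means as short lines. All 3 CH points lie above all 3 NC points for every gene shown, while the IH points lie near NC for Hsp70 and Lpin and between NC and CH for GstE1, GstE3 and CG11825.

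Glutathione S-transferases, which join glutathione to toxic and oxidized compounds, had a few strongly higher members. GstE1 read 1773, 970 and 1241 in NC and 5114, 4059 and 4138 in CH (log2 fold change 1.76, standard error 0.27, adjusted p = 0.168). GstD2 read 3652, 1690 and 1376 and then 6631, 6215 and 5917 (1.61, standard error 0.46), with NC1 and IH1 (5031) above the other NC and IH arrays. GstE3 (1.02), GstD10 (0.74), GstD5 (0.49) and GstE5 (0.37) were also above without overlap, and GstE9 was just below (-0.09). That is 6 of 27 bright members above (22.2%) and 1 below (3.7%), beside 6.84% and 7.18% of all bright probe sets. The list median was 0.01, and 0 of 34 measured members were called.

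Of 18 antioxidant enzymes, 3 lay above (16.7%) and 0 below, beside 6.84% and 7.18% of all bright probe sets. The peroxiredoxin Prx6c went from 25409, 21805 and 23954 to 29305, 35112 and 38082 (0.52), and a probe set shared by Prx6b, Prx6c and CG12896 had 0.85. The glutathione synthetase probe set for Gss1 and Gss2 had 0.70, and Gclc, which catalyses the step before, 0.20. The Gss1 and Gss2 probe set averaged 429 in NC, 706 in CH and 540 in IH, so it was not bright in NC. Nox, an NADPH oxidase that makes superoxide, was outside the list and had 0.77.

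In purine synthesis, 3 of 10 bright members lay above (30%) and 1 below (10%), with a median of 0.15. The shares over all bright probe sets were 6.84% and 7.18%. Prat2, which catalyses the committed first step, read 7853, 7107 and 6007 in NC and 18071, 10483 and 10068 in CH (log2 fold change 0.83). Pfas, a middle step, read 4541, 5607 and 5036 and then 12133, 7950 and 7990 (0.86). CH1 was well above the other CH arrays for both, and without it the values were 0.56 and 0.66. Prat, the other enzyme of the first step, overlapped (-0.16). Paics lay above (0.25) and Adsl below (-0.25).

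Amino acid enzymes included aay, the phosphoserine phosphatase that completes serine synthesis, at 14751, 11162 and 10148 in NC and 24734, 22380 and 24530 in CH (log2 fold change 1.01, adjusted p = 0.305). The decarboxylase-like amd had 492, 282 and 431 and then 1409, 915 and 676 (1.25, and 0.98 without CH1). This probe set averaged 402 in NC, 1000 in CH and 583 in IH, so it was not bright in NC. Both tyrosine breakdown enzymes on the list, Hpd (0.55) and hgo (0.52), were above, and so was Gdh by 0.09. Gnmt, the glycine N-methyltransferase that uses up S-adenosylmethionine, was lower, with 16085, 23255 and 22656 in NC and 8180, 15253 and 11632 in CH (-0.85). Odc1, the first enzyme of polyamine synthesis, was also below (-0.36, and -0.22 without CH1). That made 5 of 23 bright members above (21.7%) and 2 below (8.7%), beside 6.84% and 7.18% of all bright probe sets. Bcat, a branched-chain aminotransferase outside the list, had 0.77.

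The largest remaining increases fell on genes of varied or little known function. Drat (CG1600), an alcohol dehydrogenase domain protein, read 13948, 12663 and 10273 in NC and 23564, 34723 and 36572 in CH (log2 fold change 1.35, standard error 0.27, adjusted p = 0.393). CG44251 (CG3884) read 1362, 1156 and 976 and then 1994, 2422 and 1834 (0.83), but its brighter probe set overlapped (0.28). CG11825, of the hypoxia-induced HIG1 domain family, read 3155, 2248 and 2725 and then 5388, 6484 and 6787 (1.20, adjusted p = 0.231). Dph1, which acts in making diphthamide on elongation factor 2, had 1.23, and CG6870, a cytochrome b5-like protein, 1.25. CG32369 had 1.76 on dim and scattered NC signals of 84.2, 485 and 518. Its means were 362 in NC, 1001 in CH and 429 in IH, so it counted as bright only through the CH arrays. Further down came CG33474 (1.16), CG30334 (1.00), CG6569 (0.98), CG15745 (0.97), CG13116 (0.97), the long noncoding RNA CR33963 (0.97), CG13868 (0.95) and the serpin Spn28Dc (0.93). The mitochondrial protein Sirup, named for its increase in starvation, had 0.81, and cbt, an immediate early transcription factor, 0.70.

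Of 21 autophagy genes, 3 lay above (14.3%) and 2 below (9.52%), with a median of -0.03, beside 6.84% and 7.18% of all bright probe sets. Atg1, the kinase that starts autophagy, and its partner Atg13 had log2 fold changes of 0.48 and 0.42, and Atg18b had 0.55, while Atg5 (-0.24) and Atg4b (-0.20) were below.

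Several processes often linked to low oxygen were nearly level. None of 11 glycolytic genes separated the groups in either direction (0 above, 0 below, median 0.05, range -0.13 to 0.29), and Gapdh1 read 54891, 69038 and 71896 in NC and 58660, 71504 and 74040 in CH. Of 70 respiratory chain and ATP synthase genes, 4 lay above and 1 below (median -0.02). Of 40 cytoplasmic ribosomal protein genes 1 lay above and 1 below, of 36 proteasome genes 1 above and 0 below, and of 11 oxygen-dependent histone demethylases 0 in either direction. The shares of these lists were under those of all bright probe sets (6.84% above and 7.18% below). The 69 mitochondrial ribosomal protein genes differed, with 1 above and 11 below (15.9%) and a median of -0.10. Their separations were narrow, as in mRpS35, where 5261, 5661 and 5631 in NC faced 5185, 4558 and 4066 in CH (-0.27), and 0 passed the fold limit.

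**Figure D3:**
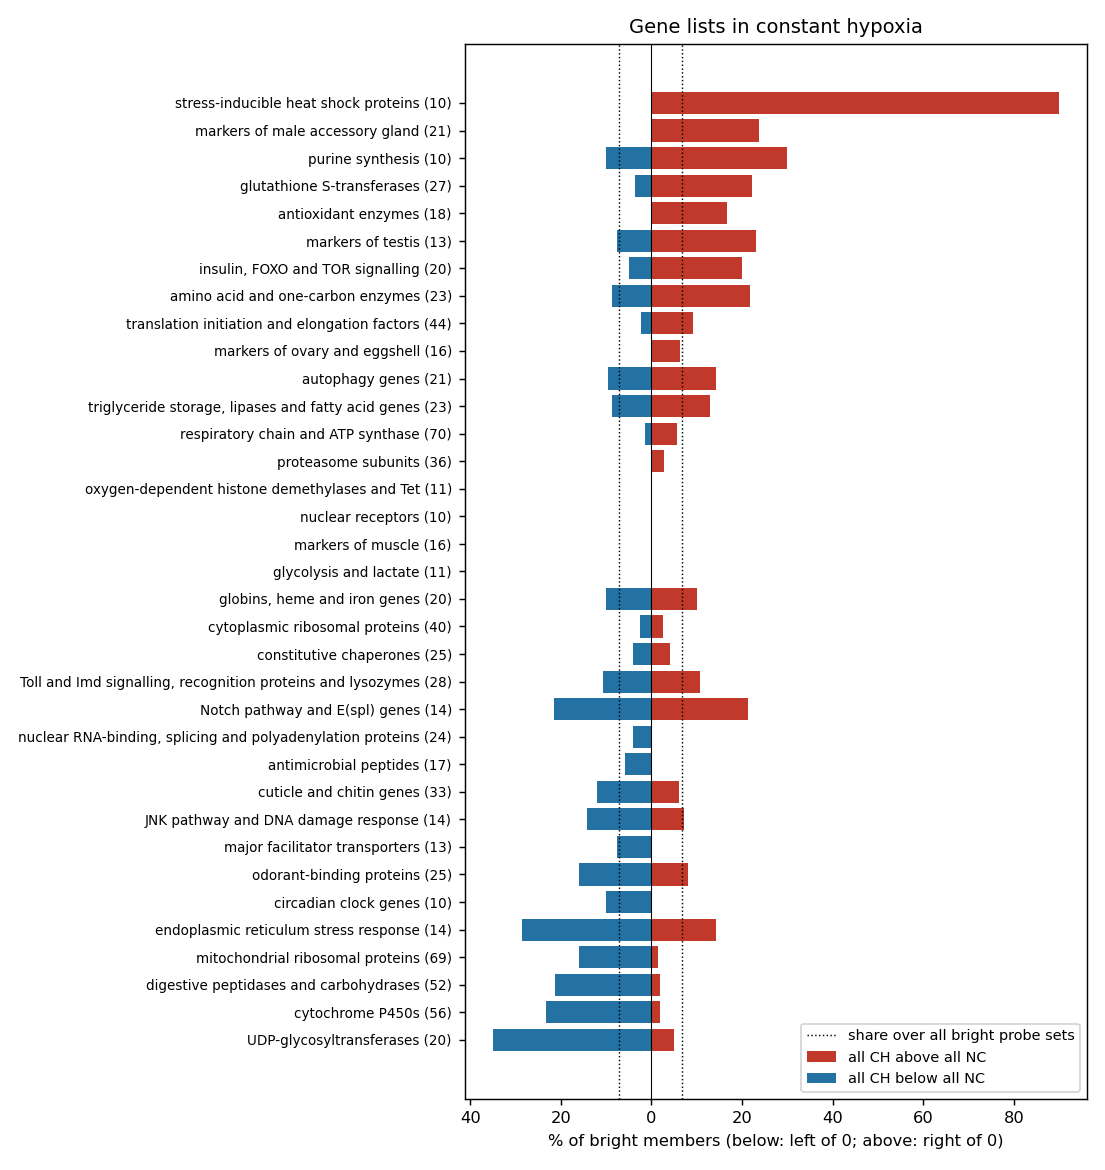
Share of the bright members of each list (numbers in brackets) whose 3 CH arrays lay all above (red, right) or all below (blue, left) the 3 NC arrays, with dotted lines at the shares over all bright probe sets, 6.84% and 7.18%. Lists with at least 10 bright members are drawn. Stress-inducible heat shock proteins reach 90% on the right, counting an Hsp70 probe set that was bright only through the CH arrays. UDP-glycosyltransferases reach 35% on the left.

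The lower probe sets included digestive enzymes, P450s and UGTs, and 0 were called by limma. The greatest decrease among bright probe sets was in CG11529, a trypsin-like protease, which read 837, 1108 and 1141 in NC and 211, 503 and 367 in CH (log2 fold change -1.54, standard error 0.42, adjusted p = 0.65 by limma). CH1 was the lowest CH array in 56 of the 76 lower probe sets, against 8 for CH2 and 12 for CH3, and NC1 was the lowest NC array in 44. Without CH1, 47 of the 76 kept a fold under 0.67, and the median log2 fold change of the 76 went from -0.75 to -0.62. Among the 98 higher ones, 82 kept their fold without CH1, and the median stayed at 0.77.

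Digestive peptidases and carbohydrases had 11 of 52 bright members below (21.2%) and 1 above (1.92%), beside 7.18% and 6.84% of all bright probe sets. Their median was -0.09, and -0.03 without CH1. The serine protease Ser8 read 4823, 3546 and 3293 in NC and 1533, 2805 and 2549 in CH (-0.78), and Try29F (-0.64), Jon66Ci (-0.62) and lambdaTry (-0.58) were lower too. Of the maltases, which split sugars in the gut, Mal-A2 (-0.41), Mal-A5 (-0.19), Mal-A7 (-0.38) and Mal-A8 (-0.47) lay below. No other bright maltase of the list separated the groups. Jon25Bii, an abundant protease of the list, lay above (0.46). The summed signal of the list ranged from 914168 to 1238975 in NC and from 944117 to 1320807 in CH, which overlap. Outside the list, the serine carboxypeptidase CG3739 read 8885, 4649 and 4514 and then 2684, 2536 and 2179 (-1.21). Muc68D, a mucin, read 24423, 29047 and 32848 and then 8674, 17150 and 19950 (-0.99, and -0.63 without CH1). The alkaline phosphatase Alp9 had -1.12, but -0.58 without CH1.

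Cytochrome P450s had 13 of 56 bright members below (23.2%) and 1 above (1.79%), beside 7.18% and 6.84% of all bright probe sets. Their median was -0.14, and -0.12 without CH1. Cyp4d21 read 2867, 1863 and 2068 in NC and 558, 1503 and 1115 in CH (-1.17), and Cyp4ac1 read 1709, 1903 and 2038 and then 735, 1341 and 1100 (-0.86). The other 11 were smaller differences, from Cyp313a4 (-0.48) to Cyp6d5 (-0.06). Cyp4ad1 was the one above (0.38).

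UDP-glycosyltransferases, which add sugars to small molecules, had 7 of 20 bright members below (35%) and 1 above (5%), beside 7.18% and 6.84% of all bright probe sets. Their median was -0.23, and -0.19 without CH1. Ugt303B3 read 1175, 1539 and 1290 in NC and 617, 700 and 885 in CH (-0.86). Ugt37A2 (-0.92), Ugt302E1 (-0.83), Ugt304A1 (-0.80) and Ugt301D1 (-0.75) also passed the fold limit, Ugt37D1 (-0.52) and Ugt36D1 (-0.36) did not, and Ugt305A1 lay above (0.32). None of the P450 or UGT members was called (0 by limma).

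Other lower genes had scattered roles. MtnC, a metallothionein that binds copper and zinc, read 16229, 21582 and 21694 in NC and 9867, 14322 and 10990 in CH (-0.76), while MtnA (0.00 after rounding), MtnB (0.21) and MtnD (-0.26) overlapped. The odorant-binding proteins Obp69a (-0.99) and Obp57a (-0.70) were lower, and Obp99b was higher (0.72). E(spl)m3-HLH, a Notch target, read 1028, 1243 and 1064 and then 325, 686 and 745 (-0.99, and -0.62 without CH1), whereas the Notch co-activator mam (0.63), hry and the glycosyltransferase fng (0.56) were above. Over the Notch list 3 of 14 bright members lay above and 3 below (21.4% each way, beside 6.84% and 7.18% of all bright probe sets). The developmental regulators ap (-0.85), ci (-0.68) and Antp (-0.58, and -0.38 without CH1) and the anosmin gene Kal1 (-0.73) were lower. repo, the glial homeodomain factor, read 1132, 1258 and 1376 and then 796, 730 and 720 (-0.73), but the other 4 glial markers overlapped. In immunity, Dredd, the caspase of the Imd pathway, read 2772, 2541 and 2553 and then 1992, 1981 and 1987 (-0.40), and its transcription factor Rel lay above (0.49).

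Genes given here without a role filled out the lower end, among them CG13607 (-1.34), CG14120 (-1.32, and -0.84 without CH1), CG11741 (-1.09, and -0.58 without CH1), CG18302 (-0.98, and -0.51 without CH1), CG14219 (-0.97) and CG33941 (-0.94). AANATL3, related to arylalkylamine N-acetyltransferases, had -0.92 (-0.52 without CH1), followed by CG1946 (-0.91), CG5002 (-0.88) and CG33514 (-0.87, and -0.20 without CH1). For CG33514 the decrease rested on CH1, which read 390 against 1629 and 1615 in CH2 and CH3. phu, an alkaline phosphatase, read 306, 650 and 364 in NC and 184, 84 and 209 in CH (-1.39), and counted as bright only through the IH arrays, at 2818, 1110 and 1817.

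**Figure D4:**
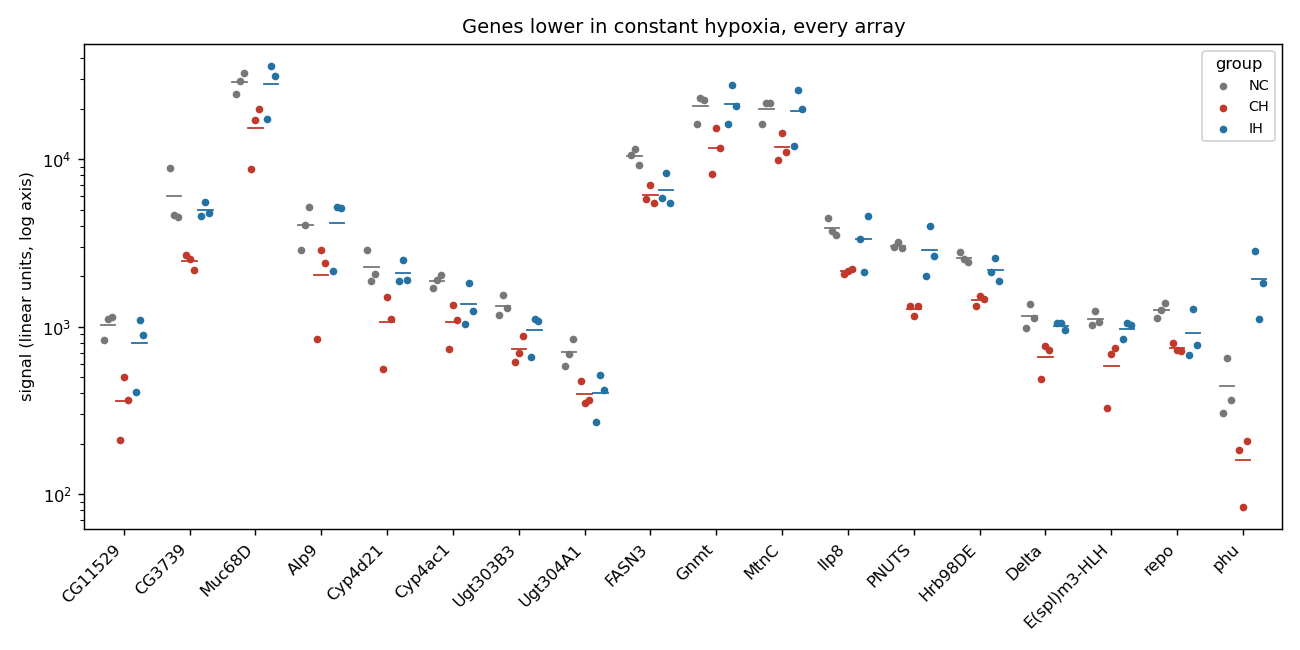
Signals (vertical, log axis) of 18 genes lower in CH, in each of the 3 NC (grey), 3 CH (red) and 3 IH (blue) arrays, with arithmetic means as short lines. All CH points lie below all NC points for every gene shown, the first CH array is often the lowest, and phu has IH points of 1110 to 2818 above both other groups.

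Several lower regulators of RNA had another probe set that did not differ in this way. PNUTS, a nuclear subunit of protein phosphatase complexes, read 2971, 3221 and 2937 in NC and 1322, 1162 and 1335 in CH in one probe set (log2 fold change -1.25, standard error 0.25, adjusted p = 0.393). Its other bright probe set read 2087, 2511 and 2486 and then 3197, 2045 and 2646, with overlap (0.14). Hrb98DE, a nuclear RNA-binding protein, had -0.84 in a probe set with a mean signal of 2064 and -0.02 in one with a mean of 18714. Pabp2, which lengthens poly(A) tails, had -1.42 in a dim probe set (mean signal 464) and 0.03 and -0.01 in its 2 bright ones. Over 24 RNA-processing genes, each represented by its brightest probe set, 0 lay above and 1 below, with a median of 0.00.

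Most lower genes with several bright probe sets also had another that overlapped. Overlap is the common case, since 6.84% of all bright probe sets lay above and 7.18% below. Of the 435 genes with 2 or more, 9 had one past the lower fold limit without overlap, and in 9 of 9 it was not the brightest of its gene. In 7 of these genes another bright probe set overlapped. They include ap (-0.85 against -0.53), CG10205 (-0.73, or -0.36 without CH1, against -0.22) and Delta, the Notch ligand (-0.81 against -0.19). Others were cact, the inhibitor of Toll signalling (-0.65, or -0.36 without CH1, against 0.10) and the polarity kinase par-1 (-0.69 against -0.03 and 0.18). In Evi5 another was above, and in CG33514 alone did every other one lie below. Among higher genes, 6 had several bright probe sets, and Hph, RhoGAP18B and CG30222 had all of them above. CG5953, a MADF domain gene, had 1.21 in one (3282, 3892 and 3348 in NC, 8136, 8051 and 8064 in CH) and 0.01 in its brightest. Probe sets of 1 gene can read different transcripts, and which transcripts they read was not analysed here.

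**Figure D5:**
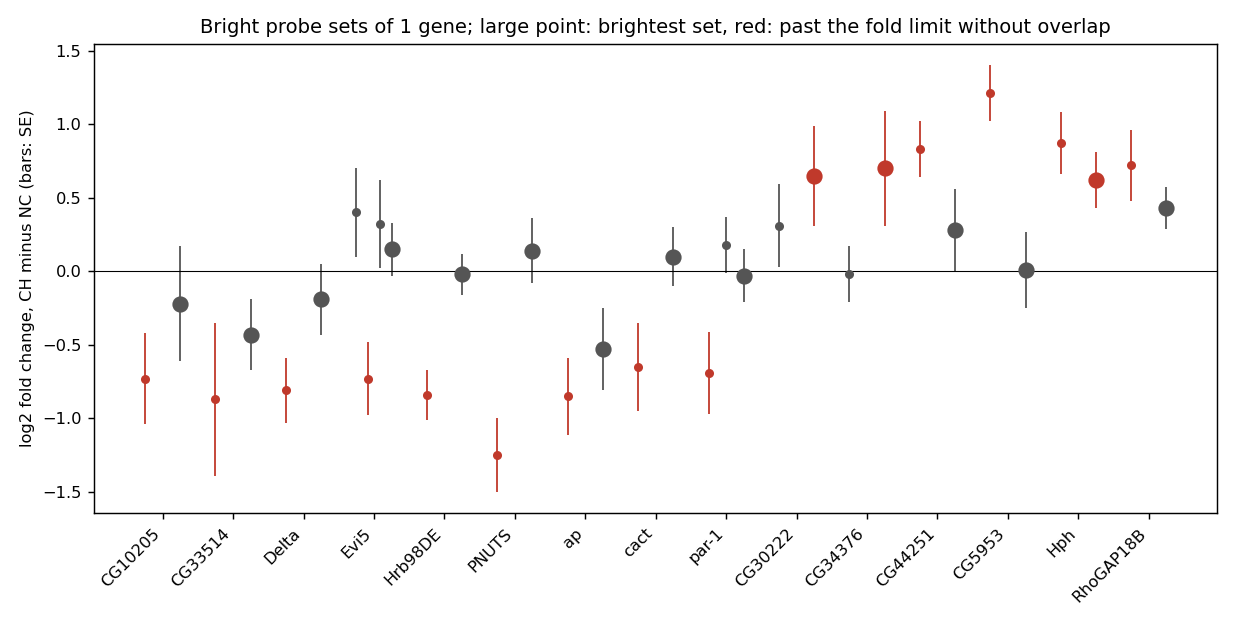
Log2 fold change of CH against NC (vertical, bars are standard errors from limma) for every bright probe set of the 15 genes that had several and 1 or more past a fold limit without overlap (red). The large point of each gene is its brightest probe set, which lies nearer to 0 in PNUTS, Hrb98DE, cact and CG5953.

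Of the markers of reproductive tissue, those of testis had summed signals that did not overlap between the groups, and those of the male accessory gland and the ovary overlapped. Over all bright probe sets, 6.84% lay above and 7.18% below. Of 21 bright markers of the male accessory gland, 5 lay above (23.8%) and 0 below, 19 had a fold change over 0, and their median was 0.25. Their summed signal was 296725 to 332255 in NC and 328950 to 403187 in CH, and the gland markers Sfp65A (0.71, and 0.44 without CH1) and Acp76A (0.47, and 0.27 without CH1) read highest in CH1. Sfp65A was near the brightness limit outside CH, with means of 501 in NC, 862 in CH and 425 in IH. Of 13 testis markers 3 lay above and 1 below, with a median of 0.26 and sums of 94563 to 111812 in NC and 117351 to 139792 in CH, which do not overlap. Of 16 ovary and eggshell markers 1 lay above (6.25%, near the share of all bright probe sets) and 0 below (median 0.18, sums 837608 to 1119349 and 1050806 to 1302397). Photoreceptors (0 of 7), neurons (0 of 8), Malpighian tubules (0 of 4) and muscle (0 of 16) had no marker that separated the groups, hemocytes had 2 of 8 below (eater and crq), and fat body had 1 of 3 below (Apoltp, -0.36, and -0.21 without CH1). The testis genes h-cup (0.70) and soti (0.68) were among the 98 higher probe sets. The part of these tissues in the other differences was not tested.

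IH, which shares the NC arrays with CH, was set beside it gene by gene. The Hsp70B probe set read 500, 603 and 500 in IH, the Hsp70Aa and Hsp70Ab one 1622, 1499 and 1830, and CG10383 5857, 5086 and 5393, all within the NC range. By limma, CH lay over IH for each Hsp70 probe set, with log2 differences of 4.32 (Hsp70Bc and Hsp70Bb), 4.07 (Hsp70B) and 3.35 (Hsp70Aa and Hsp70Ab), with adjusted p of 0.0384, 0.0064 and 0.0064. In CG10383 the difference was 1.82 (adjusted p = 0.0294). Those 4 were the only ones of the 174 probe sets with an adjusted p under 0.05 between CH and IH. Hsp68 gave 2.05 (adjusted p = 0.0788), and Lpin, with 3348, 4978 and 3904 in IH, gave 1.25 (adjusted p = 0.158). Hpd was lower in IH than in NC, at 4929, 7156 and 7331, for a CH minus IH difference of 1.13 (adjusted p = 0.26).

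For Drat, CG44251 and FASN3 the IH means lay nearer to CH than to NC. Drat read 16603, 28092 and 24609 in IH, all above the NC arrays, and its CH minus IH difference was 0.46 (standard error 0.27, adjusted p = 0.999). CG44251 read 2016, 2332 and 2152 in IH, a difference of -0.06 (standard error 0.19), and FASN3 read 5853, 8266 and 5464, a difference of -0.08 (standard error 0.21). GstE1 had 3039, 1992 and 1990 in IH, between the groups, with a difference of 0.94 (adjusted p = 0.672). phu and Ugt37A2 had the widest gaps on the lower side, with CH minus IH differences of -3.45 (adjusted p = 0.0806) and -2.24 (adjusted p = 0.311). The median IH log2 fold change was 0.21 over the 98 higher and -0.26 over the 76 lower probe sets, beside 0.77 and -0.75 in CH.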

How the data were processed

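The deposited values are linear intensities per probe set, which the authors normalized with the Bioconductor affy software (options not given in the sources used here). Signals were analysed as log2(signal + 16) for 18769 probe sets, with 183 control probe sets left out. The platform annotation gives a single symbol for 13647 of them, more than 1 for 402 and none here for 4720. RefSeq's gene table held 12449 of the 12551 gene identifiers. Probe set coordinates and sequences were not used. There are no counts or depth, and the number of arrays limits the precision. limma 3.58.1 (R 4.3.3) fitted a mean per group to all 9 arrays, with p-values adjusted by Benjamini-Hochberg across every probe set. It replaces the VAMPIRE suite that the methods name. On simulated data the same limits called 11 of 67 probe sets raised 2-fold, 45 of 67 raised 4-fold and 59 of 66 raised 8-fold. Of 18569 unchanged ones 8 were called. Most changes of 2-fold were therefore missed in the simulation. It drew independent normal noise for each array, without the variation that arrays of equal number share here, so the rates may differ in these data. No per-sample column was left unused.

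The members, gene lists and rules were chosen with earlier results of these data known, so no list or gene is independent support. The genes named are every called probe set, the 20 bright non-overlapping probe sets with 1 symbol and the largest fold each way, up to 4 past the fold limits each way and a few defining members per list, Hsp70, Hsp68, Drat and CG44251 as genes the paper names for CH, and those at the edges of the rules. List members short of the fold limits, genes with several probe sets, and Nox, Sirup, Bcat, Pabp2, CG31343, h-cup, soti, ci, Antp and Kal1 were added after their values were seen. Of a list, each gene is its brightest probe set, and probe sets with several symbols count when all are listed. Hsp23 was not analysed here.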

Additional observations from a re-analysis of the deposited data

Results flagged for a closer look

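The 3 Hsp70 probe sets and CG10383 stood out because CH and IH differed from each other by limma, with CH minus IH log2 differences of 4.32 for Hsp70Bc and Hsp70Bb, 4.07 for the Hsp70B probe set, 3.35 for Hsp70Aa and Hsp70Ab and 1.82 for CG10383 (adjusted p = 0.0384, 0.0064, 0.0064 and 0.0294). phu stood out because all CH arrays lay below and all IH arrays above the NC arrays. Its CH minus IH log2 difference was -3.45 and missed the threshold by limma (adjusted p = 0.0806), and that the directions are opposed was not tested.

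The 18S rRNA control probe sets, which no comparison of genes used, differed by 1.85 on the log2 scale between the CH and NC means, CH being higher (two-sided p = 0.1 by an exact permutation test, the least possible here), and IH2 and IH3 were also high, at 10.54 and 10.22.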

How the results depend on the processing

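With 3 arrays a group, only large and steady differences passed limma. The 4 probe sets called higher became 0 with only the NC and CH arrays, 15 with the dimmest 40% left out, 17 with trend and robust estimation, 2 with 1 added in place of 16 and 2 at an adjusted p under 0.01. Leaving out 1 array gave 0 to 3, and the count called lower was 0 in all of these. In the main fit 250 lower ones met the fold and direction limits at an unadjusted p under 0.05. The share of all probe sets at that p was no larger than expected if nothing changed. The labels do not say whether replicate numbers pair the samples. The correlations of CH and NC deviations of equal numbers were 0.276, 0.0918 and 0.125 over all probe sets and larger over bright ones (0.562, 0.404 and 0.365). Over both, each CH array correlated best with the NC array of its own number. With the replicate block, 1 was called higher over 9 arrays and 0 over the 6. Chosen after seeing the data, leaving out NC1, CH1 and IH1 together gave 0. The bright counts of 702 above and 737 below were 98 and 76 with the fold limit, and leaving out 1 array, which makes separation easier, gave 867 to 1409 and 1068 to 1754. They passed 1.5 times the full count without CH1 (1409 and 1754), NC1 (1323 and 1494) and NC2 (1075 and 1108) in both directions, without CH3 above (1110) and without CH2 below (1147). Of the 98 and 76 past the fold limits, 82 and 47 remained past it without CH1, and 82 and 52 without NC1 and CH1. No fold change of these 174 probe sets changed direction with quantile normalization or median centring. In the other alternative runs the direction could not change, since these probe sets were chosen for having no overlap.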
